A study of Rattus norvegicus with 6 samples.

Results

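The genes described here encode the intestinal mucins and the proteins that share the mucus layer with them. They were chosen by name, and all 10 were found among the 28282 gene symbols of the count tables. They are the gel-forming mucin Muc2, the transmembrane mucins Muc3l1 and Muc13, the Fc gamma binding proteins Fcgbp and Fcgbpl1, the metalloprotease Clca1, the lectin Zg16, the trefoil peptide Tff3, the disulphide isomerase Agr2 and the transcription factor Spdef. Single-nucleus RNA sequencing had been performed on the ileum of 6 male wild type Sprague-Dawley rats, 6 weeks old and acclimatized for 7 days, with 1 library per rat. The 3 rats of the SAP group had sodium taurocholate at 3% infused backwards into the pancreatic duct at 0.1 mL/min, with 0.1 mL given for each 100 g, and the duct clamped for 5 min, to induce severe acute pancreatitis. The 3 rats of the CON group underwent a sham laparotomy with no infusion, and all 6 were anaesthetised with pentobarbital (40 mg/kg), fasted after surgery with free access to water and sacrificed at 24 h. The CON group therefore does not separate the infusion and clamping from the pancreatitis that follows, and the rats come from an outbred stock.

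Mucus in the small intestine is a loose layer that covers the villi and fills the crypts. Goblet cells fold Muc2 in the endoplasmic reticulum with the help of Agr2, store it in granules and secrete it together with Fcgbp, Clca1, Zg16 and Tff3, while Spdef drives the terminal differentiation of these cells. The transmembrane mucins stay on the apical surface of the epithelium, where they form the glycocalyx, and Muc13 is known from absorptive enterocytes as well as goblet cells.

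Nuclei with at least 1200 unique molecular identifiers (UMIs), at least 500 genes and at most 5% mitochondrial UMIs numbered 40970 of 90461 barcodes. The libraries held between 3189 and 9246 such nuclei and between 5549260 and 28771508 UMIs, and the median mitochondrial share per library was 0.125% to 0.700% in CON and 0.387% to 1.84% in SAP. The tables of CON 2 and SAP 1 alone listed barcodes of fewer than 1000 UMIs, and SAP 1 was the smallest library. Clustering without the 10 genes gave 20 clusters, and fixed marker lists named 15 classes. The goblet-like class (4124 nuclei) had 12 of its 16 marker genes raised, none of them counted among the 10. Enterocyte-like nuclei formed clusters led by Apoa4 (3500 nuclei) and by Fabp6, the ileal bile acid binding protein (875 nuclei). The 4 clusters that met no marker list keep their numbers and held 33.7% of nuclei. They are cluster 1 (7370 nuclei, led by Slc5a8 and Hnmt among named genes), cluster 7 (1446 nuclei, led by Gfra4), cluster 10 (4414 nuclei, led by Ldb3, Ceacam20 and Si) and cluster 18 (572 nuclei). Each was counted as epithelial or not by the named class that its profile resembled most. Cluster 18, nearest to lymphocyte-like nuclei, was so counted with the immune and stromal nuclei, and the others as epithelial.

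The promoter sequences of the 5 genes around which the results turn are given first, as the 250 bases before each RefSeq transcription start on the GRCr8 assembly, 5′ to 3′. Capitals mark the letters TATAAA (the core of a TATA box), TTTATG (the core read by CDX factors) and AGATAA (the core read by GATA factors) on either strand. Fcgbp and Fcgbpl1 are next to each other on chromosome 1, and Muc3l1 lies beside Muc3a, so each has a close relative at its side.
Muc2, chr1:206228785-206229034 (plus strand): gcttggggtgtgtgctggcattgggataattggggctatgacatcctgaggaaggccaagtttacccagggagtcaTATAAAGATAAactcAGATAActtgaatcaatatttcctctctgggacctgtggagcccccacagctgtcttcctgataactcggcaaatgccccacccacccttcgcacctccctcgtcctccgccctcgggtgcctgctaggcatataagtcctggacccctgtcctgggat
Muc3l1, chr12:25091295-25091544 (plus strand): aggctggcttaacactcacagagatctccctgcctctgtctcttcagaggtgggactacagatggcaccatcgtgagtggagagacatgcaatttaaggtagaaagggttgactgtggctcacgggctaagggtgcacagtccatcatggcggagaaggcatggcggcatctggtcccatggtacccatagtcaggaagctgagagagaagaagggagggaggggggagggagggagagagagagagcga
Muc13, chr11:80485407-80485656 (minus strand): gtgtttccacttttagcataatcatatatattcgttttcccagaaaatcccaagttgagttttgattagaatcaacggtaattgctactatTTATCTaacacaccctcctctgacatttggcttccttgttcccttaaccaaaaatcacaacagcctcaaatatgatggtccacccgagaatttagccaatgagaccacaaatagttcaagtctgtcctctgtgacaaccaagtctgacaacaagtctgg
Fcgbp, chr1:92502519-92502768 (plus strand): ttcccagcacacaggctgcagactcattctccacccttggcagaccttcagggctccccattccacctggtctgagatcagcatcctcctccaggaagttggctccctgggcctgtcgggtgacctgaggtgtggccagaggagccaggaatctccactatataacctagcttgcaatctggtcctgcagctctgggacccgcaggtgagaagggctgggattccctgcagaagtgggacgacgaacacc
Fcgbpl1, chr1:92552113-92552362 (plus strand): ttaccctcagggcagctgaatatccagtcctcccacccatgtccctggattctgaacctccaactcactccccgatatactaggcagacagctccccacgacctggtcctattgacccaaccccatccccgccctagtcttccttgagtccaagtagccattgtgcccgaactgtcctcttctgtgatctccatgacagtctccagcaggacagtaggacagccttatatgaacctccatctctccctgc
Of the 9 members with an entry, TATAAA was present in Muc2 and Tff3 (12.9% of 33469 promoters), AGATAA in Muc2 and Muc13 (10.3%) and TTTATG in Agr2 (11.4%), and the first TATAAA and AGATAA of Muc2 overlap by a base. Zg16 is the other member. The windows of Muc3l1, Fcgbp and Fcgbpl1 held none of these letters.

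The first question was which nuclei carried the mucus genes. In CON libraries Muc2 averaged 5041 ± 1062 CPM (UMI counts scaled to the library total of the class; SD, n = 3) in goblet-like nuclei, 5.76 times its 875 ± 118 CPM in all immune and stromal nuclei, and exceeded the next class, cluster 18 (1329 ± 980 CPM), in every library. Goblet-like nuclei were likewise highest for Fcgbp (6674 ± 1511 CPM), Clca1 (2228 ± 982), Zg16 (3315 ± 1937), Tff3 (4444 ± 2934), Agr2 (1705 ± 1417), Fcgbpl1 (33.9 ± 3.32), Spdef (898 ± 267) and Muc3l1 (386 ± 129). The ratio to immune and stromal nuclei ran from 3.09 for Fcgbpl1 to 6.10 for Spdef. Apart from the unnamed cluster 18, which was counted with them, these are classes that do not make mucus. Muc13 was the exception, with 6681 ± 2334 CPM in enterocyte-like and 2942 ± 350 CPM in cluster 10 nuclei, against 2271 ± 417 CPM in goblet-like nuclei. These orders are a description, since the classes were built from genes that vary together with the mucus genes.

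**Figure D1:**
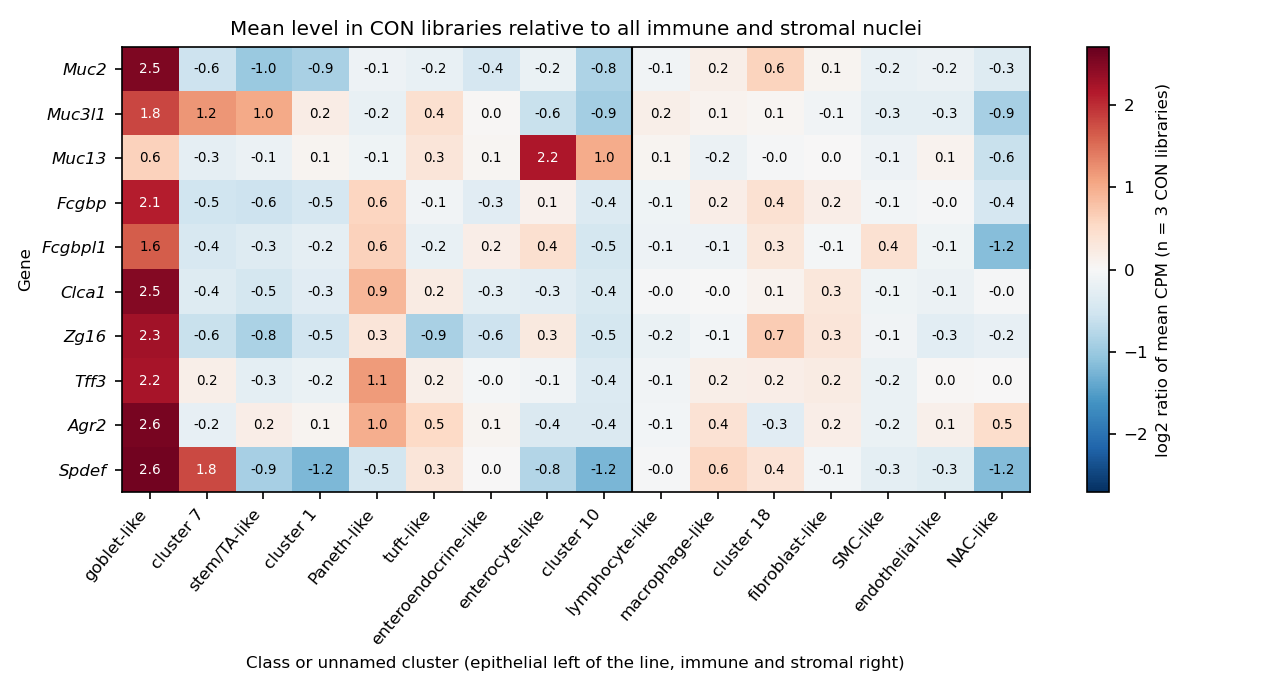
Heat map of the 10 genes (rows) in 16 classes and clusters (columns), coloured and labelled by the log2 ratio of the mean CPM of 3 CON libraries to that of all immune and stromal nuclei. The goblet-like column is high for 9 genes, with 2.53 for Muc2, Muc13 is highest in enterocyte-like nuclei at 2.18, and Spdef reaches 1.78 in cluster 7.

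After goblet-like nuclei the genes parted. For Clca1, Tff3 and Agr2, Paneth-like nuclei came second, at 743 ± 329, 2118 ± 1339 and 574 ± 414 CPM, or 1.86, 2.21 and 1.98 times the immune and stromal level. Paneth-like nuclei were also second for Fcgbp (2288 ± 680 CPM) and Fcgbpl1 (16.96 ± 4.09 CPM). For none of these genes did they exceed the next class beyond the spread among CON libraries, and only for Agr2 in all 6 libraries. Next came fibroblast-like nuclei for Clca1 (492 ± 141 CPM) and Tff3 (1112 ± 423 CPM), and cluster 18 for Fcgbp (2015 ± 1265 CPM). For Tff3 and Agr2 the step between goblet-like and Paneth-like nuclei was smaller than the spread among CON libraries, although for Agr2 it had the same sign in all 6 libraries. Spdef was second in cluster 7, at 505 ± 148 CPM, 3.43 times the immune and stromal level, whereas the secreted members there lay near or below that level (Muc2 591 ± 80.3 CPM). Muc3l1 was also above the immune and stromal level in cluster 7 (254 ± 106 CPM, 2.29 times) and in stem/TA-like nuclei (226 ± 68.2 CPM, 2.04 times), 2 neighbours in its order that did not differ beyond their spread. In enterocyte-like nuclei Muc3l1 was at 73.5 ± 56.7 CPM and therefore below that level. Muc2 in the other epithelial classes, from 439 ± 46.3 CPM in stem/TA-like to 791 ± 65.5 CPM in Paneth-like nuclei, did not rise above the immune and stromal level.

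Detection gave the same picture and also showed how far mucus RNA reached. With every nucleus thinned to 1200 UMIs, Muc2 was detected in 92.0% ± 2.09 of goblet-like nuclei in CON and 89.3% ± 6.71 in SAP, and in 46.4% ± 5.87 and 43.5% ± 8.65 of immune and stromal nuclei (SD, n = 3). Without thinning the goblet-like values were 96.4% ± 1.18 and 95.7% ± 1.67, at median depths of 1743 UMIs in goblet-like and 1861 UMIs in immune and stromal nuclei. Of the 6 secretory genes Muc2, Fcgbp, Clca1, Zg16, Tff3 and Agr2, at least 3 were detected in 96.9% ± 1.11 of goblet-like nuclei in CON and 95.4% ± 4.22 in SAP. The same was true of 51.2% ± 6.45 and 57.1% ± 21.3 of immune and stromal nuclei. Fcgbpl1, in contrast, was rarely seen even in goblet-like nuclei, in 4.69% ± 0.334 of them in CON and 0.674% ± 0.402 in SAP after thinning (6.87% ± 1.24 and 1.05% ± 0.234 without it). In immune and stromal nuclei the thinned shares were 1.27% ± 0.541 and 0.135% ± 0.135. In Paneth-like nuclei they were 2.99% ± 1.08 in CON and 0.29% ± 0.272 in SAP.

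Patterns across the 19 classes and clusters were compared by Pearson correlation of log2(CPM + 1), as a description over sums that share libraries. Among other genes Muc2 was most like Bcas1 (r = 0.904), Fer1l6 (0.900), Sytl2 (0.892), Capn9 (0.892) and Rep15 (0.874), of which Bcas1, Fer1l6, Sytl2 and Capn9 were goblet markers that named the class. Muc3l1 was most like Rasef (0.883), LOC120095953 (0.879), Sh3bgrl2 (0.879), Qsox2 (0.870) and Foxa3 (0.865). Muc13 was most like Slc39a4 (0.967), Tm6sf2 (0.965), Slc6a8 (0.965), Tm4sf20 (0.963) and Actn4 (0.963). Within the 10 genes Muc2 followed Fcgbp (0.945), Zg16 (0.920) and Clca1 (0.920) closely, while Muc13 ran against Muc3l1 (-0.361).

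The second question was whether SAP changed these genes. In sums over all nuclei 8 of the 10 were lower and 2 higher in SAP. None passed the test of edgeR's quasi-likelihood model (Benjamini-Hochberg adjusted p under 0.05 and a change of at least 0.5 on the log2 scale), which called 0% of 19187 genes. At an unadjusted p under 0.05 there were 3 members, against 8.43% of all genes, namely Fcgbpl1 and Muc3l1, which were lower, and Muc13, which was higher. DESeq2 called 2 of the 10 in the same sums, Fcgbpl1 (adjusted p = 8.01e-05) and Muc3l1 (adjusted p = 0.0472), and 1.12% of all genes. SAP libraries did not overlap with CON libraries for 3 lower members, against 9.06% of genes, and for 1 higher member, against 4.9%. In epithelial nuclei edgeR called 0 of the 10 and 0% of 17013 genes, and 3 members had an unadjusted p under 0.05 against 11.2% of genes. There 2 members were lower without overlap, against 12.3% of genes, and 1 was higher, against 6.59%. DESeq2 called 3 members in epithelial nuclei, with Muc13 joining the others (adjusted p = 0.0368), against 1.75% of genes. The median log2 fold change of the members over all nuclei was -0.60, and that of all genes tested was 0.02. In bulk sums of this kind fewer nuclei of a type and less RNA per nucleus cannot be told apart. Goblet-like nuclei made up 10.5%, 13.7% and 11.1% of the CON libraries. They made up 8.72%, 6.27% and 8.995% of the SAP libraries, with no overlap (two-sided exact permutation test, p = 0.1, the smallest that 3 against 3 allows). The moderated test of the logit share, adjusted over classes, gave 0.696. Shares of stem/TA-like nuclei and cluster 7 were also lower in SAP without overlap, and that of enterocyte-like nuclei was higher. A share without overlap was therefore not particular to goblet-like nuclei.

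Fcgbpl1, a paralogue of the mucus protein Fcgbp, was the member that separated the groups most clearly. In goblet-like nuclei its counts were 92, 48 and 75 UMIs in CON and 3, 3 and 10 UMIs in SAP. After TMM normalisation these came to 39.6, 29.4 and 32.3 CPM in CON and 7.13, 3.42 and 4.72 CPM in SAP. Every SAP library lay below every CON library, a log2 fold change of -2.83 (SE 0.39, edgeR adjusted p = 0.216). For goblet-like nuclei 8.17% of 11751 genes were lower without overlap, and edgeR called 1 gene, 0.00851%, which was not a member. DESeq2 put the log2 fold change at -2.83 with an adjusted p of 0.00105, and called 0.4% of genes. With every gene that had a count kept in the test, edgeR called Fcgbpl1 and Muc13 in goblet-like nuclei, with 1.46% of all genes. Enterocyte-like nuclei likewise had 16.9, 10.5 and 16.6 CPM against 2.35, 2.14 and 1.58 CPM (log2 fold change -2.91, SE 0.50, adjusted p = 0.431), where 6.87% of genes were lower without overlap. Its CON level there was 14.7 ± 2.76 CPM, 1.34 times the immune and stromal level. Stromal SMC-like nuclei were at 14.6 ± 6.38 CPM, or 1.33 times, so the enterocyte-like level did not stand out from that of a stromal class. The other classes with enough Fcgbpl1 for the test were stem/TA-like nuclei (-2.65), cluster 1 (-1.59) and lymphocyte-like nuclei (-1.77), also without overlap, but their CON levels were 0.79, 0.84 and 0.91 times the immune and stromal level. Fcgbpl1 was thus tested in 5 of 16 classes and clusters. The filter before the test asks for enough counts in 3 libraries, which the CON libraries alone could supply. The shared sign and the lack of overlap over these 5 are therefore not separate support. On plain CPM (without TMM), the immune and stromal level was also subtracted in each library. Goblet-like nuclei then kept 27.7, 23.0 and 17.9 CPM in CON against 6.43, -1.72 and 2.63 CPM in SAP, without overlap. Goblet-like Fcgbpl1 in SAP 2 thus lay below that level. Enterocyte-like nuclei kept 3.14, 6.08 and 2.002 CPM against 1.995, -2.77 and -0.76 CPM. There CON 3 and SAP 1 nearly met, too close to tell these nuclei from background RNA. For stem/TA-like nuclei, cluster 1 and lymphocyte-like nuclei this was not tested.

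Fcgbp itself did not follow. Its normalised level in goblet-like nuclei was 8966, 5527 and 5593 CPM in CON and 12254, 7560 and 4896 CPM in SAP, and the groups overlapped (log2 fold change 0.30, SE 0.42, adjusted p = 0.868). Fcgbpl1 accordingly made up 0.440%, 0.528% and 0.574% of the UMIs of the pair in goblet-like nuclei of CON rats and 0.0581%, 0.0452% and 0.0964% in SAP rats. The other epithelial nuclei had 0.832% ± 0.192 (CON) and 0.194% ± 0.132 (SAP), and immune and stromal nuclei 0.716% ± 0.227 and 0.185% ± 0.197 (SD, n = 3). In each of these 3 compartments the libraries of the groups did not overlap, with an exact permutation p of 0.1. Over all nuclei the counts behind these shares were 398, 126 and 331 Fcgbpl1 UMIs in CON and 9, 55 and 48 in SAP. Reads that match both paralogues could be split between them by the authors' counting, and at these counts Fcgbpl1 levels are uncertain to that extent.

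**Figure D2:**
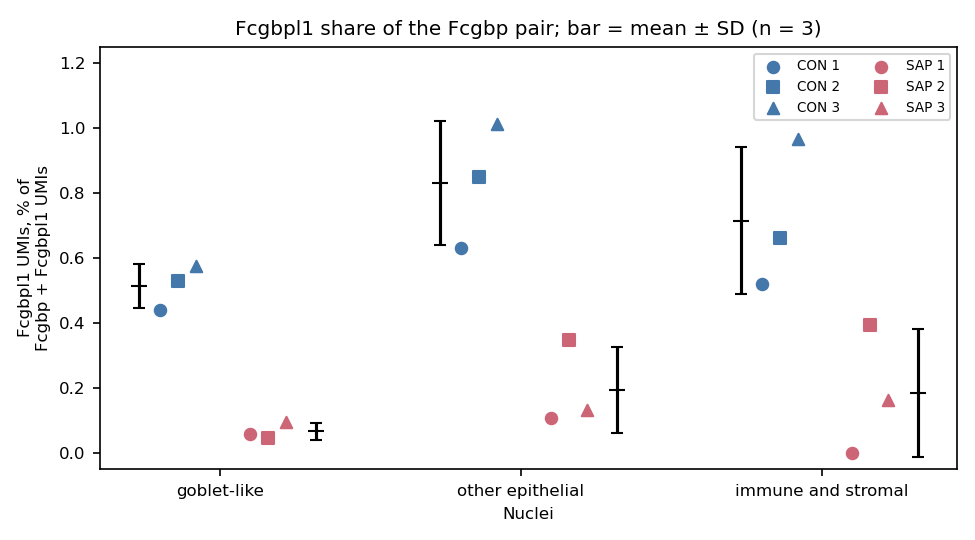
Fcgbpl1 UMIs as a percentage of Fcgbp plus Fcgbpl1 UMIs (y axis, linear) in goblet-like, other epithelial, and immune and stromal nuclei (x axis), with 1 point per library and the mean ± SD of 3 libraries beside each group. The CON goblet-like points lie at 0.440% to 0.574%, above SAP points of 0.0452% to 0.0964%, and the groups are also apart in the other compartments.

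Muc3l1, a transmembrane mucin, was lower in SAP without overlap in stem/TA-like nuclei and cluster 7, but not in the goblet-like nuclei where its level was highest. In stem/TA-like nuclei it had 246, 289 and 152 normalised CPM in CON libraries and 80.8, 61.0 and 64.2 CPM in SAP libraries. No SAP library reached the lowest CON library there, a log2 fold change of -1.74 (SE 0.27, edgeR adjusted p = 0.272). In that fit 8.33% of 12388 genes were lower without overlap. Goblet-like nuclei had 397, 500 and 253 CPM in CON and 435, 288 and 141 CPM in SAP, and these overlapped (log2 fold change -0.43, SE 0.41, adjusted p = 0.798). That value was -0.87 without SAP 1, -0.66 without CON 3, -0.20 without CON 2 and -0.09 without SAP 3. In enterocyte-like nuclei the values were 58.7, 107 and 34.9 CPM against 31.7, 18.9 and 23.7 CPM (-1.45, SE 0.45, adjusted p = 0.682). Over the classes and clusters, Muc3l1 was lower in all 15 in which it was tested and without overlap in 10, while 7.64% of all genes tested in the 16 classes and clusters were. Its level exceeded that of immune and stromal nuclei in all 6 libraries in goblet-like nuclei, cluster 7 and stem/TA-like nuclei, whereas enterocyte-like nuclei and clusters 1 and 10 were near or below it in CON (0.66, 1.14 and 0.53 times). As a ratio to that level Muc3l1 overlapped between the groups in stem/TA-like nuclei (1.52, 2.39 and 2.58 in CON, 1.66, 1.41 and 2.64 in SAP). Cluster 7 overlapped too (1.34, 3.05 and 3.06 against 2.19, 1.59 and 5.29). In goblet-like nuclei the ratio was higher in SAP (2.52, 4.21 and 4.30 against 8.71, 6.48 and 5.65). Whether the lower level belonged to these nuclei was not tested. The classes share the same 6 libraries and this background, so the count over classes is not a count of separate results. In classes with few Muc3l1 counts the CON libraries alone could also supply what the filter asks for. In endothelial-like nuclei, for example, thinned detection was 15.2%, 9.76% and 7.10% in CON against 0%, 3.45% and 3.20% in SAP. DESeq2 called Muc3l1 in stem/TA-like and SMC-like nuclei and in clusters 1 and 10, and 0.56% of all genes in those 16.

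The Muc3l1 log2 fold change in goblet-like nuclei stood above that in enterocyte-like nuclei by 0.80 (SE 0.34). This difference, tested within rats, had an edgeR p of 0.0301 and an adjusted p of 0.83, and 0% of 12851 genes passed. Enterocyte-like Muc3l1 was above the immune and stromal level in 1 of 6 libraries, so the goblet-like difference was here set against one at or near background. In immune and stromal nuclei, whose Muc3l1 is at background, the level was 148, 124 and 61.6 CPM for CON libraries and 45.0, 41.2 and 26.5 CPM for SAP libraries, again without overlap. The summed level of 8 stem marker genes over all nuclei was 1484 to 1766 CPM in CON and 567 to 1316 CPM in SAP, with none at 0. On plain CPM 3 of the 8 were lower without overlap, against 9.06% of all genes on normalised CPM. The part of these markers in the Muc3l1 result was not tested.

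Muc13, the transmembrane mucin of absorptive cells, was higher in SAP. In all nuclei its normalised level was 2068, 1845 and 2314 CPM in CON and 5287, 8375 and 2473 CPM in SAP. All SAP libraries were above all CON libraries, with SAP 2 far the highest and SAP 3 close to the CON range (log2 fold change 1.37, SE 0.47, adjusted p = 0.545). In enterocyte-like nuclei, where Muc13 was most abundant, it had 8398, 3539 and 8534 CPM against 13860, 13514 and 11352 CPM (0.92, SE 0.62, adjusted p = 0.767), again without overlap, as for 6.44% of genes in the higher direction. In cluster 10 it had 3593, 2327 and 3057 CPM against 5271, 8716 and 4621 CPM (1.05, SE 0.30, adjusted p = 0.358). Goblet-like nuclei had 1933, 2269 and 2520 CPM in CON and 3768, 6752 and 2556 CPM in SAP (0.96, SE 0.38, adjusted p = 0.51). There the distance between the highest CON and the lowest SAP library was small, and 6.61% of genes were higher without overlap. Without SAP 2 the log2 fold change was 0.49 in goblet-like nuclei and 0.90 in all nuclei, and without CON 2 it was 0.60 in enterocyte-like nuclei. Muc13 was higher in SAP in all 16 classes and clusters, and without overlap in 10, while 6.32% of all genes were. These classes include the immune and stromal ones and share the same 6 libraries, so this too is not a count of separate results.

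Muc13 was also counted outside the epithelium. In immune and stromal nuclei it stood at 1068, 1364 and 1979 CPM for CON libraries and at 2314, 4779 and 1971 CPM for SAP libraries, which overlap. After that level was subtracted in each library, enterocyte-like nuclei of CON rats kept 5210 ± 2000 CPM and those of SAP rats 9311 ± 651 CPM, with no overlap (exact permutation test, p = 0.1). Goblet-like nuclei kept 801 ± 178 and 1105 ± 365 CPM, which overlapped (exact permutation test, p = 0.2). Enterocyte markers summed to 925 to 3388 CPM over all nuclei in CON and 3245 to 4454 CPM in SAP, with CON 2 the lowest and no marker at 0. On plain CPM 3 of 15 were higher without overlap, against 4.9% of all genes on normalised CPM. Enterocyte-like and cluster 10 nuclei together carried 39.8% ± 8.91 of all Muc13 UMIs of CON rats and 56.3% ± 8.22 of those of SAP rats (exact permutation test, p = 0.1). This rise was not particular to Muc13. The same share went from 9.23% ± 1.59 to 17.1% ± 7.74 for Muc2 and from 12.0% ± 3.04 to 19.4% ± 5.22 for Fcgbp. Enterocyte-like nuclei alone held 27.9% ± 10.7 (CON) and 39.9% ± 6.80 (SAP) of Muc13 UMIs. Of the UMIs of all genes they held 8.58% ± 2.04 and 16.3% ± 6.19, where the groups overlapped. The part of the enterocyte share in the Muc13 result was not tested.

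**Figure D3:**
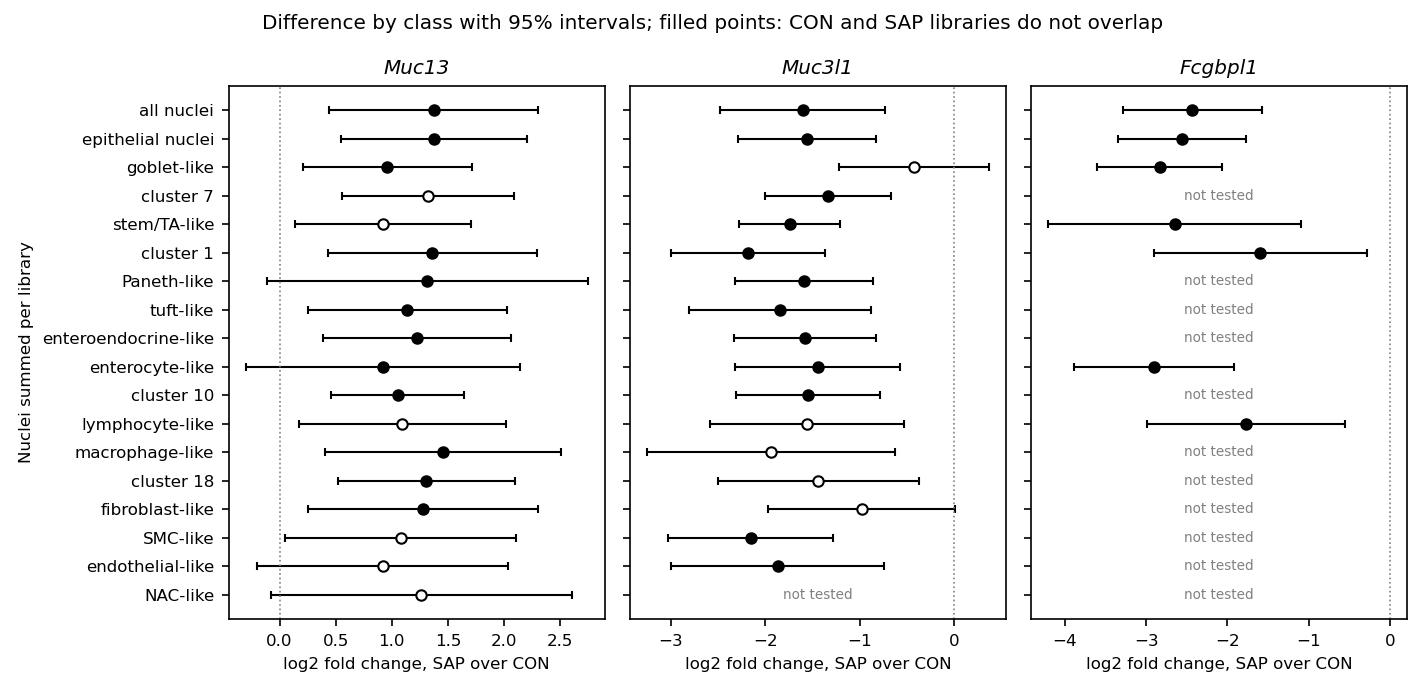
Log2 fold change of SAP over CON (x axis) with 95% intervals for Muc13, Muc3l1 and Fcgbpl1 in all nuclei, epithelial nuclei and each class or cluster (y axis), where filled points mark comparisons in which the CON and SAP libraries do not overlap. Muc13 lies above 0 and Muc3l1 below 0 in every class tested, with the goblet-like Muc3l1 estimate nearest to 0 at -0.43, and Fcgbpl1 lies between -2.91 and -1.59 in the classes where it could be tested. Fcgbpl1, and Muc3l1 in classes with few counts, could enter these tests through high CON counts alone.

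Muc2, the structural polymer of the mucus gel, overlapped between the groups in goblet-like nuclei, where it was most abundant. Goblet-like nuclei had 5402, 5845 and 3792 CPM in CON and 6073, 2050 and 3373 CPM in SAP, with SAP 1 the highest of all 6 libraries and SAP 2 the lowest (log2 fold change -0.39, nominal 95% interval -1.22 to 0.44, adjusted p = 0.826). Over all nuclei the normalised values were 1400, 1297 and 833 CPM against 1030, 429 and 755 CPM, which overlap. Muc2 was lower in SAP in 15 of 16 classes and clusters, and without overlap in cluster 7, macrophage-like and SMC-like nuclei, where in CON it lay near or below the immune and stromal level. Over the 16 classes and clusters together 7.64% of all genes were lower without overlap, and the classes share the same 6 libraries. On plain CPM, without the TMM factors, the all-nuclei values of Muc2 were 1093, 1333 and 1022 in CON and 873, 391 and 981 in SAP, which did not overlap. Goblet-like nuclei carried 48.8% ± 12.3 of all Muc2 UMIs of CON rats and 40.0% ± 11.7 of those of SAP rats (exact permutation test, p = 0.4).

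Clca1, Zg16, Tff3 and Agr2 varied widely among rats of the same group. In goblet-like nuclei Agr2 had 3457, 1354 and 438 CPM in CON and 1768, 255 and 506 CPM in SAP, so that CON libraries alone differed by more than the group means (log2 fold change -1.06, SE 0.85, adjusted p = 0.752). That value was -0.10 without CON 1, -0.65 without SAP 2 and -2.24 without SAP 1. Tff3 had 8214, 3440 and 1949 CPM against 6560, 2726 and 2038 CPM (-0.27, SE 0.60, adjusted p = 0.927). Zg16 had 5909, 2213 and 2001 CPM against 8370, 1500 and 2502 CPM (0.29, SE 0.68, adjusted p = 0.931). Clca1 had 3580, 1602 and 1582 CPM against 2841, 1254 and 1723 CPM (-0.22, SE 0.42, adjusted p = 0.909). In each of these 4 genes, and in Fcgbp, replicate 1 was the highest library of its group. The summed Paneth markers in goblet-like nuclei were also highest there, at 45061 CPM in CON 1 and 39549 CPM in SAP 1 against 1684 to 3608 CPM in the other 4 libraries, with Defa5 and Defa11 at 0. Their part in these values was not tested. Without both replicate 1 libraries the log2 fold changes were -1.24 for Agr2, -0.19 for Tff3, -0.08 for Zg16 and -0.10 for Clca1, so that the sign of Zg16 turned.

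Spdef in goblet-like nuclei was at 690, 1133 and 828 CPM in CON and 915, 660 and 768 CPM in SAP (-0.18, SE 0.26, adjusted p = 0.87). Over all nuclei Spdef was lower without overlap, from 177, 284 and 165 CPM to 151, 114 and 140 CPM, with a log2 fold change of -0.62 (SE 0.28, adjusted p = 0.598). In cluster 7, its other main site, the values were 429, 577 and 564 CPM against 394, 297 and 459 CPM, where the groups overlapped. Over all 147 fits of a member in a class, edgeR called 0 against 0.00761% of all genes, and 33 had an unadjusted p under 0.05 against 7.99%. Without overlap 21 were lower, against 7.64% of all genes, and 10 higher, against 6.32%. These fits share the same 6 libraries, and Muc3l1 (10 lower), Fcgbpl1 (5 lower) and Muc13 (10 higher) made up most of them. The Fcgbpl1 fits, and Muc3l1 fits in classes with few counts, could pass the filter through CON counts alone. No member's effect differed between goblet-like and enterocyte-like nuclei at the adjusted threshold.

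**Figure D4:**
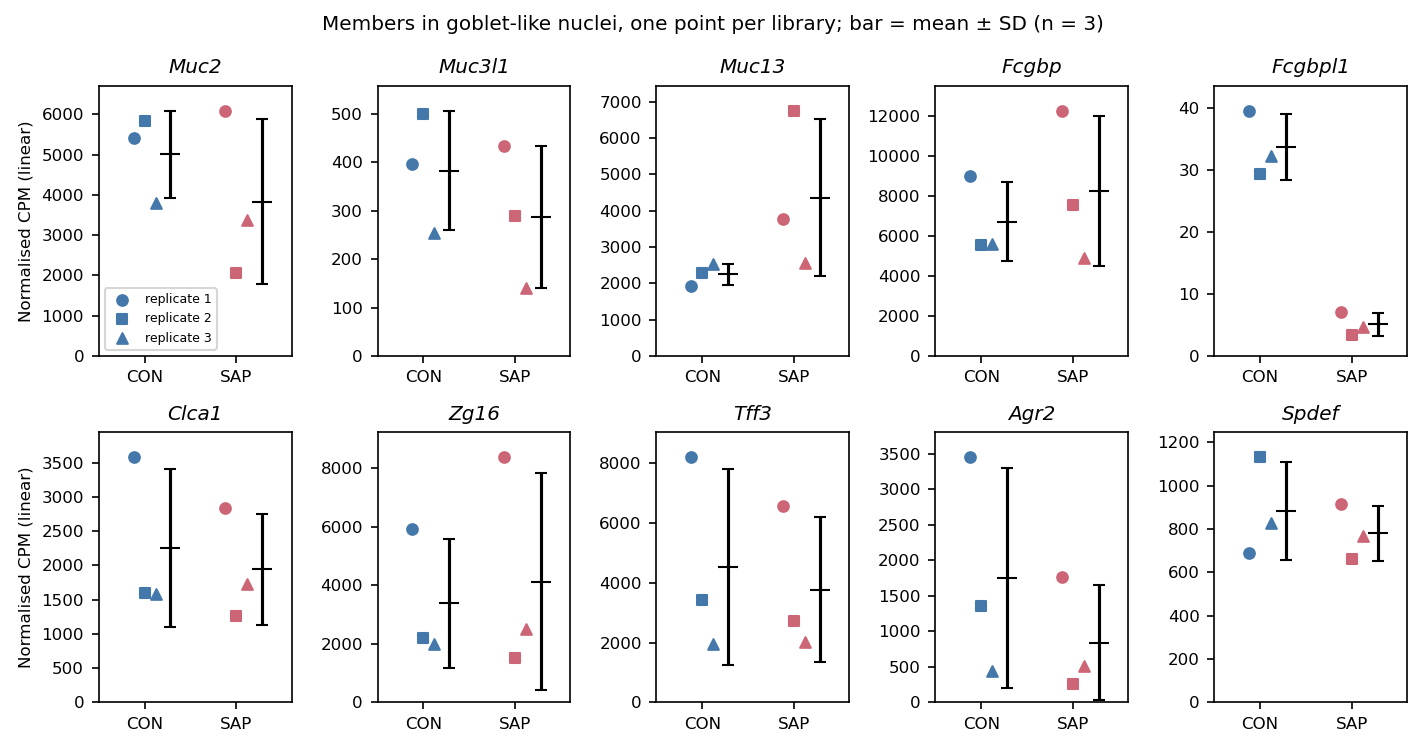
Normalised CPM (y axes, linear from 0) of the 10 genes in goblet-like nuclei of each CON and SAP library, with a symbol for each replicate number and the mean ± SD (n = 3) beside each group. Fcgbpl1 is the gene with clearly separate groups (29.4 to 39.6 against 3.42 to 7.13 CPM), and replicate 1 is highest in both groups for Clca1, Zg16, Tff3 and Agr2.

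The wider mucus programme was read from 5 lists. In goblet-like nuclei 0 genes of these lists were called by edgeR, and the background of genes with an unadjusted p under 0.05 was 9.05%. Of 14 genes for mucin release and unpacking, 9 were higher and 5 lower in SAP, 5 of the higher ones with an unadjusted p under 0.05, and the list median was 0.11 on the log2 scale. Best2, an anion channel, was among these 5, and could pass the filter before the test only with the help of SAP libraries. Its place among them is therefore no support. Higher genes of this kind were not particular to goblet-like nuclei. Higher genes of this list at that threshold numbered 4 in stem/TA-like nuclei and 4 in cluster 1, but 0 in enterocyte-like nuclei. Slc12a2, the chloride importer of the basolateral membrane, was at 695 ± 196 CPM in CON and 767 ± 212 CPM in SAP, and Sytl2, a Rab27 effector, at 771 ± 163 and 623 ± 213 CPM. Of 20 tested genes of mucin O-glycosylation, 9 were higher and 11 lower, 1 with an unadjusted p under 0.05, with a median of -0.04. Galnt10 and Galnt12, which start O-glycan chains, were at 690 ± 155 and 661 ± 264 CPM in CON and at 776 ± 79.8 and 644 ± 278 CPM in SAP. Of 14 transcription and folding factors, 9 were higher and 5 lower, and 0 had an unadjusted p under 0.05. Elf3, an epithelial transcription factor, was at 893 ± 77.6 CPM (CON) and 1212 ± 428 CPM (SAP), and Creb3l4 at 391 ± 39.1 and 424 ± 169 CPM.

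Among secreted proteins of goblet cells 8 of 10 tested were higher and 3 of them had an unadjusted p under 0.05, with a median of 0.54. This list was also mostly higher outside goblet-like nuclei, so the shift was not particular to them. It was higher for 6 of 7 genes in SMC-like nuclei (median 0.97) and for 5 of 6 in fibroblast-like nuclei (1.02). In cluster 10, 4 were higher and 4 lower (0.35). In goblet-like nuclei Guca2a, the guanylin precursor, was at 1302 ± 1084 CPM in CON and 1396 ± 921 CPM in SAP. The intelectin Itln1 was at 254, 122 and 216 CPM in CON and 5683, 422 and 135 CPM in SAP, so its mean rests on SAP 1. Of the other mucins 3 of 11 found were tested in goblet-like nuclei. Muc3 was higher in SAP without overlap, from 53.9, 31.2 and 69.8 CPM to 71.3, 141 and 100 CPM (log2 fold change 1.02, SE 0.35, adjusted p = 0.483), and Muc4 was lower (-1.03, SE 0.45, adjusted p = 0.537) with overlap. Muc3 and Muc3l1 thus had opposite signs, and as close relatives they may share reads. In all nuclei 0 genes of the 5 lists were called either, and in enterocyte-like nuclei, where 6.95% of genes had an unadjusted p under 0.05, again 0. Of the 10 members, DESeq2 called none in enterocyte-like nuclei, against 0.134% of genes, and 2 had an unadjusted edgeR p under 0.05.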

How the data were processed

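Nuclei of 6 ileal libraries (3 CON, 3 SAP) were analysed from the deposited tables of UMI counts per gene and barcode. The authors made these counts with dnbc4tools, and the submitters' processing notes name build mRatBN7.2 and Seurat 4.3.0. The labels name no batch by which the libraries differ, which does not show that all were handled alike. The study's filter was applied (at least 1200 UMIs, 500 genes, at most 5% mitochondrial) and left 40970 of 90461 barcodes. The total that the study gives is lower. Barcode names are running numbers, so the 5398 names found in more than 1 library say nothing of shared cells.

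Nuclei were clustered (2000 variable genes, 30 components, Harmony re-implemented, Leiden resolution 0.8 with 20 neighbours; scanpy 1.11.5) without the members and the mitochondrial, defensin, RT1 and Reg3 genes. Scrublet's automatic threshold marked at most 0.188% per library, so doublets stayed in, and removing the top 5% was an alternative. A class name needed a mean log2 ratio of its markers of at least 0.5, a lead of 0.5 over the next list (stem and TA, T and B, and endothelial and lymphatic lists were joined), and at least 3 and most of its markers raised at least 1 log2 unit, a rule set after the clusters were seen. Counts were summed per library and class (at least 10 nuclei in every library) and tested with edgeR 4.0.16 (quasi-likelihood, TMM, filterByExpr), Benjamini-Hochberg adjusted over all genes, called at adjusted p under 0.05 and a log2 change of at least 0.5. DESeq2 1.42.0 was an alternative. Standard errors are the estimate over the square root of F, and the test was checked on simulated counts. Libraries are separate rats, and intervals cover counting error and spread between rats only. Intervals are nominal (the estimate ± 1.96 standard errors) and narrower than the F test would give.

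Same-numbered CON and SAP libraries deviated together over all nuclei (r = 0.577, 0.183 and 0.524), the sums on which the check had been set. A block for replicate number was therefore fitted as an alternative. The main fits of SAP against CON, the exact permutation tests and the overlap counts left replicate numbers out. In epithelial (0.588, 0.0546 and 0.436) and goblet-like sums (0.431, 0.0808 and 0.247) the second pair was below 0.1 and below CON 3 with SAP 2 (0.166 and 0.213), so the pairing is uncertain there. Members and lists were chosen with earlier results of these data known. Named genes are the members, list genes that were called or were the 2 highest of their list by CPM (not per length) in goblet-like nuclei, and the 5 genes most like Muc2, Muc3l1 and Muc13 (mean of at least 10 CPM).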

Additional observations from a re-analysis of the deposited data

How the results depend on the processing

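The counts of members called in each class depended on the test and its filter. DESeq2 called 2 members in all nuclei (1.12% of all genes), 3 in epithelial (1.75%), 1 in goblet-like (0.4%) and 4 over the other classes (1 to 204 genes in each), where edgeR called 0. With every gene that had a count kept, edgeR called 2 in goblet-like (355 of 24354 genes), 1 in enterocyte-like (156 of 24253) and 12 over the other classes (5 to 397 genes in each). Leaving out a library gave 0 to 1 over the other classes, the 1 being Muc3l1 in SMC-like nuclei without CON 3. The replicate block called 0 members in every class and changed no call (Fcgbpl1 in goblet-like nuclei -2.79, adjusted p = 0.104). No result whose sign turned had been called. Zg16 was -0.010 with every gene kept, -0.089 with the replicate block, -0.068 with a covariate for the libraries that list shallow barcodes and -0.044 without both replicate 1 libraries in all nuclei. It was -0.081 with the block and -0.028 with the covariate in epithelial nuclei, and -0.087 with the covariate and -0.083 without replicate 1 in goblet-like nuclei. Clca1 in enterocyte-like nuclei was -0.035 with the replicate block and -0.014 at resolution 0.4. Spdef in goblet-like nuclei was 0.0023 without integration. In epithelial nuclei Fcgbp was 0.0045 and Clca1 0.0045 without replicate 1. Leaving out libraries gave -1.68 to 0.52 for Agr2 in enterocyte-like and -2.18 to 0.031 in epithelial nuclei. Clca1 ranged over -0.68 to 0.30 in all, -0.36 to 0.53 in enterocyte-like, -0.74 to 0.30 in epithelial and -0.63 to 0.28 in goblet-like nuclei. Fcgbp ranged over -0.47 to 0.24 in all, -0.47 to 0.25 in epithelial and -0.13 to 0.56 in goblet-like nuclei, and Spdef over -0.47 to 0.032 in goblet-like nuclei. Tff3 ranged over -1.19 to 0.38 in all, -0.75 to 0.45 in enterocyte-like, -1.22 to 0.41 in epithelial and -0.97 to 0.48 in goblet-like nuclei. Zg16 ranged over -0.45 to 0.45 in all, -0.80 to 0.11 in enterocyte-like, -0.39 to 0.51 in epithelial and -0.79 to 0.96 in goblet-like nuclei. The causes were not tested. Leaving out both replicate 1 libraries and subtracting the immune and stromal level were chosen after seeing the data. With 3 rats a group no exact permutation p can go below 0.1.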

Other observations

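Among the genes for mucin release and unpacking, 2 were picked out after their values were seen. Vamp8, a SNARE protein of secretory granules, was at 34.9, 36.7 and 48.7 normalised CPM in goblet-like nuclei of CON rats and at 68.9, 114 and 69.0 CPM in SAP rats, without overlap (log2 fold change 1.07, SE 0.29, edgeR adjusted p = 0.474). Best2, a bestrophin anion channel, was at 11.6, 0 and 16.8 CPM in CON and 85.5, 67.3 and 42.0 CPM in SAP, also without overlap (adjusted p = 0.481). In goblet-like nuclei 6.61% of all genes were higher without overlap. With a count of 0 in CON 2, Best2 could pass the filter only with the help of SAP libraries, so its lack of overlap is no support. Muc3a, the neighbour of Muc3l1, was picked in the same way and was at 26.1, 21.9 and 9.33 CPM over all nuclei in CON and 6.38, 10.3 and 3.13 CPM in SAP, with overlap (log2 fold change -1.54, SE 0.55, adjusted p = 0.545).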
